A study of Mus musculus with 4 samples.

Results

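Gnas, the gene of the stimulatory G protein alpha subunit, and the 9 membrane adenylyl cyclase genes Adcy1 to Adcy9 were chosen by gene symbol, 10 of the 51912 genes in the deposited table. The tissue was subcutaneous white fat of C57BL/6 mice at 8 weeks of age, and its RNA was sequenced. Mice had received BML-260, a compound known to block the phosphatase DUSP22, or dimethyl sulfoxide as the vehicle. Each treatment has 2 libraries, called BML-260 A and B and vehicle A and B after their labels. The series speaks of 8 mice, 4 per treatment; how these mice map to the libraries is not stated in the labels. The p-values therefore measure only the spread between libraries, which may be technical. The labels state no dose, route or duration of treatment.

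Adenylyl cyclases make cyclic AMP from ATP at the cell membrane. Hormone receptors such as the beta-adrenergic receptors load the stimulatory alpha subunit, Gs alpha, with GTP, and Gs alpha switches on every membrane cyclase; in adipocytes the cyclic AMP activates protein kinase A, which drives lipolysis and, in brown and beige fat, the transcription of Ucp1. The cyclases differ in what else controls them. Adcy1, Adcy3 and Adcy8 encode enzymes that calcium and calmodulin can stimulate, Adcy2, Adcy4 and Adcy7 enzymes that G protein beta-gamma dimers stimulate, Adcy5 and Adcy6 enzymes that inhibitory G proteins and calcium inhibit, and Adcy9 an enzyme with little response to forskolin.

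Total expected counts lay between 19999836 and 23726781 per library. The libraries differed in the summed markers of several tissues and cell types. Skeletal muscle markers summed to 38892 and 58634 CPM (counts scaled to library size with TMM factors) in BML-260 A and B, against 552 and 13516 CPM in vehicle A and B. T and NK cell markers summed to 193 and 30.9 CPM in the BML-260 libraries, against 21.1 and 44.1 CPM in the vehicle libraries, so BML-260 A stood apart. Adipocyte markers were high in all 4 libraries, with Adipoq at 1662 and 2193 CPM in the BML-260 libraries, against 3022 and 2744 CPM in the vehicle libraries. The 14 adipocyte markers summed to 32655 and 47059 CPM with BML-260, below the sums of the 26 muscle markers in the same libraries. With vehicle they summed to 53232 and 52019 CPM, above the muscle sums. In bulk tissue, fewer cells of a type and less RNA per cell cannot be told apart.

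No member passed the test. Of the 10 genes, 9 had enough reads to be tested, and the quasi-likelihood test of edgeR, Benjamini-Hochberg adjusted over 15643 genes, called 0 of them at an adjusted p under 0.05; the smallest adjusted p among them was 0.39. DESeq2 called 0 of them as well. Over all genes the edgeR rule called 0.00639% and the DESeq2 rule 2.60%. At an unadjusted p under 0.05, 2 members, Adcy2 and Adcy9, were higher with BML-260 and 0 were lower, where 7.45% of all tested genes were higher and 3.61% lower. In 5 of the 9 the CPM of both treatments stood apart without overlap, higher with BML-260 for Adcy2, Adcy3 and Adcy9 and lower for Adcy1 and Adcy5; over all tested genes 22.9% were higher in this way and 21.5% lower. The median log2 fold change, BML-260 over vehicle, was 0.12 over the 9 members and 0.02 over all tested genes.

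Levels can be compared between genes in FPKM, the authors' values per transcript length and library size. Gnas stood far above the cyclases, at 567 and 624 FPKM in the BML-260 libraries and 554 and 566 FPKM in the vehicle libraries. The summed FPKM of the 9 cyclase genes was 84.9 and 99.2 in BML-260 A and B, against 88.7 and 97.9 in vehicle A and B, so the sums overlapped and Gnas exceeded them 6.68-fold and 6.29-fold with BML-260 and 6.25-fold and 5.78-fold with vehicle. Adcy6 ranked first of the cyclases in all 4 libraries, followed by Adcy5 on the mean over libraries and then by Adcy3, Adcy7, Adcy4, Adcy9, Adcy2, Adcy1 and Adcy8. Over the 4 libraries the ranges of these neighbours overlapped for Adcy6 and Adcy5, for Adcy3 and Adcy7, for Adcy7 and Adcy4, for Adcy4 and Adcy9, and for Adcy2 and Adcy1. They did not overlap between Gnas and Adcy6, Adcy5 and Adcy3, Adcy9 and Adcy2, or Adcy1 and Adcy8. In CPM, which is not per length, Adcy5 lay above Adcy6 in vehicle A (188 against 183) and vehicle B (214 against 195).

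**Figure D1:**
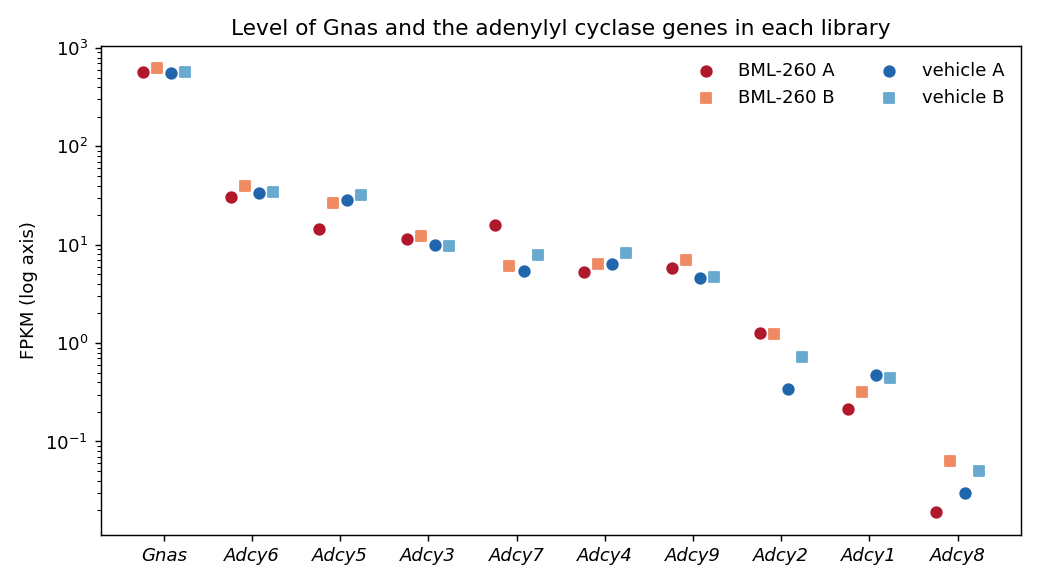
FPKM of Gnas and the 9 cyclase genes (log axis) in each library, ordered by mean level, with BML-260 in reds and vehicle in blues. Gnas lies between 554 and 624 FPKM in all 4 libraries, and Adcy7 in BML-260 A, at 16.03 FPKM, lies above its gene's other values, as Adcy5 in BML-260 A, at 14.4 FPKM, lies below its own.

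Gnas (ENSMUSG00000027523) spans chromosome 2 from 174284320 to 174346744 (GRCm38, plus strand). It is an imprinted locus that yields Gs alpha and other products from alternative first exons. Its level was 795 and 897 CPM in BML-260 A and B, against 757 and 805 CPM in vehicle A and B. Both groups overlapped, since BML-260 A lay below vehicle B. The fold was 1.08 with a 95% confidence interval of 0.777 to 1.51 (log2 fold change 0.12, SE 0.19, edgeR adjusted p = 0.852), from 15941 to 19700 reads per library. The antisense transcript Nespas, which crosses the upstream exons, was listed at 0 in the table. Gene-level values do not separate Gs alpha from the locus's other products.

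Among the calcium and calmodulin stimulated cyclases, Adcy3, the isoform of olfactory neurons whose loss causes obesity in mice, was the most abundant. Adcy3 (ENSMUSG00000020654, chromosome 12, 4133103 to 4213525, plus strand) had 43.6 and 44.1 CPM in the BML-260 libraries, against 39.9 and 40.6 CPM in the vehicle libraries. Both BML-260 values were the higher ones, by a small margin: the fold was 1.09 with a 95% interval of 0.898 to 1.32 (log2 fold change 0.12, SE 0.11, edgeR adjusted p = 0.709). In FPKM the same gene had 11.4 and 12.2 with BML-260, against 9.90 and 9.60 with vehicle, a wider gap than in CPM (log2 difference 0.27 on the log2(FPKM + 0.1) scale, limma adjusted p = 0.609).

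The gap between the count and FPKM scales of Adcy3 can also be written as a transcript length, which restates it and is no separate evidence. The ratio of a gene's expected count to its FPKM, once scaled to the library, gives the mean transcript length that the authors' estimates imply, a comparison chosen after the values were seen. For Adcy3 it was 4260 and 3944 bases in BML-260 A and B, against 4584 and 4695 bases in vehicle A and B, 11.6% shorter on average with no overlap. Of the 7 members with at least 100 reads in every library and more than 1 annotated transcript, Adcy3 was the 1 gene at least 10% shorter without overlap. Over all 9844 such genes 5.12% met that rule, 504 in number, and 438 met its mirror image of longer transcripts. Genes with 1 annotated transcript moved by a median of 0.134% and by less than 2.63% in 95% of 883 cases. With 1 transcript the length is nearly fixed in advance, and 739 of these genes set the library scale. Their small movement is thus no measure of noise for genes with several transcripts. The protein-coding gene Cenpo overlaps Adcy3 on the opposite strand, with 184 and 148 reads in the BML-260 libraries against 148 and 143 in the vehicle libraries, and its part in the length values was not tested. Transcript-level values were not analysed here.

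GENCODE lists 8 transcripts of Adcy3, and RefSeq's promoter table gives 2 start windows on the plus strand of GRCm38.p6, 756 bases apart, printed here because a gene-level value does not separate transcripts from these starts. Each runs from 250 bases before to 50 bases after the start, and capitals mark GC boxes (GGGCGG on either strand).
Adcy3, upstream start, chr12:4133147-4133446: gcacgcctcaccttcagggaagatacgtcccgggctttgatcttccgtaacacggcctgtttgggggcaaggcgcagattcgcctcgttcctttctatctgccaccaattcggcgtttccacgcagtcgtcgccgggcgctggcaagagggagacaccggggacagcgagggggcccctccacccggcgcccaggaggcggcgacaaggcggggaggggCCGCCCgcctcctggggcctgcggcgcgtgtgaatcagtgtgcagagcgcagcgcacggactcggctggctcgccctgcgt
Adcy3, downstream start, chr12:4133903-4134202: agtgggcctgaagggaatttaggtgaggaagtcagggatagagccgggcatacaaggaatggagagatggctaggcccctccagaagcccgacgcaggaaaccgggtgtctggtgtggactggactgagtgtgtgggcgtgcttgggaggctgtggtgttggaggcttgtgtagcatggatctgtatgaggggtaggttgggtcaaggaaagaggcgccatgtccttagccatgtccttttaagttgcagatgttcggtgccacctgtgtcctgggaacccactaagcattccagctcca
The upstream window is richer in G and C, at 68.7% against 56.0%, and holds 1 GC box, while the downstream window holds 0; 35.7% of the 32851 promoter windows in the table hold a GC box. The cyclic AMP response element TGACGTCA was in 0 of the 14 windows of the 8 members with an entry and in 1.79% of all windows.

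**Figure D2:**
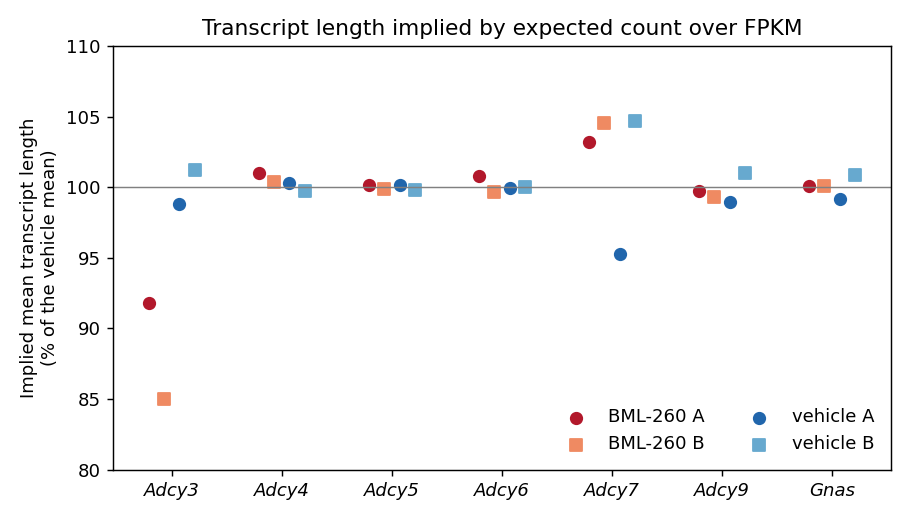
Mean transcript length implied by expected count over FPKM in each library, as a percentage of the vehicle mean of that gene, for the members with enough reads. The BML-260 points of Adcy3 lie below its vehicle points, those of Adcy5 nearly coincide with vehicle, and vehicle A is the low point of Adcy7.

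The other calcium-stimulated isoforms, both best known from neurons, were rare. Adcy1 (ENSMUSG00000020431, chromosome 11, 7063489 to 7178506, plus strand) had 2.55 and 3.92 CPM in BML-260 A and B, against 5.55 and 4.11 CPM in vehicle A and B, from 53 to 117 reads. Both BML-260 values were below both vehicle values, with a fold of 0.671 and an interval from 0.370 to 1.22 (edgeR adjusted p = 0.577). Markers of Schwann cells and neurons summed to 475 and 657 CPM with BML-260, against 1076 and 866 CPM with vehicle, with 3 of 12 tested markers above zero and 2 of 18 at 0 throughout, and their part in the level of Adcy1 was not tested. Adcy8 (ENSMUSG00000022376, chromosome 15, 64697084 to 64922296, minus strand) was removed by the low-count filter of the edgeR test, and its unadjusted DESeq2 p was 0.983. It had 2 and 7 reads in the BML-260 libraries, against 3 and 6 in the vehicle libraries, with exact Poisson intervals of 0.242 to 7.22, 2.81 to 14.4, 0.619 to 8.77 and 2.20 to 13.1 reads in that order, which cover counting error only. No difference in Adcy8 was detectable at this depth.

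Adcy2 (ENSMUSG00000021536, chromosome 13, 68620043 to 68999541, minus strand), a cyclase stimulated by beta-gamma dimers, had the largest fold among the tested members. It had 5.01 and 4.97 CPM in BML-260 A and B, against 1.33 and 2.85 CPM in vehicle A and B, from 104 and 109 reads against 28 and 66 reads. The BML-260 libraries matched each other closely and lay above both vehicle libraries, which differed 2.15-fold between themselves. The fold was 2.37 with a 95% interval of 1.14 to 4.96 (log2 fold change 1.25, SE 0.42), and the edgeR adjusted p of 0.418 missed the threshold, as did the adjusted p of 0.304 in DESeq2. In the authors' deposited table Adcy2 has a log2 fold change of 0.745 and an adjusted p of 0.336. The authors' unadjusted p of 0.0210 is close to the 0.0209 of DESeq2 here. The deposited comparison rests on the same libraries and is no separate evidence, and its smaller fold change was not examined. Summed skeletal muscle markers were also lowest in vehicle A, next in vehicle B and highest in the BML-260 libraries, with 22 of 23 tested markers above zero. When a skeletal muscle score entered the edgeR model, which left 1 residual degree of freedom, the log2 fold change of Adcy2 was 0.34. In that fit all 9 tested members had an adjusted p of 0.99997 and edgeR called 0 genes, so this p is not particular to Adcy2. The score was 9.18 and 9.65 in BML-260 A and B, against 3.84 and 7.70 in vehicle A and B. The muscle score and treatment therefore cannot be told apart. Without vehicle A the log2 fold change of Adcy2 was 0.78 and without vehicle B 1.90.

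Adcy7 (ENSMUSG00000031659, chromosome 8, 88272403 to 88329962, plus strand), also stimulated by beta-gamma dimers and known as the main isoform of many blood cells, varied most of the 9 tested members between libraries of 1 treatment. It had 87.9 and 34.8 CPM in BML-260 A and B, against 26.9 and 44.3 CPM in vehicle A and B. BML-260 A was 2.52-fold above BML-260 B, which fell between the vehicle libraries. The fold was 1.72 with a wide interval, 0.747 to 3.97 (log2 fold change 0.78, SE 0.48, edgeR adjusted p = 0.586), and without BML-260 A the log2 fold change was -0.05. The 4 libraries had the same order in Adcy7 and in the T and NK cell markers, whose list of 18 tested genes had 16 above zero and 0 at 0 throughout. B cell markers other than Ighm, 9 genes, summed to 196 and 3.46 CPM in the BML-260 libraries, against 1.95 and 2.77 CPM in the vehicle libraries. Ighm itself had 240 and 157 CPM with BML-260, against 168 and 136 CPM with vehicle, so that BML-260 A held nearly all of the other B cell markers. Macrophage markers summed to 2907 and 1540 CPM with BML-260, against 2024 and 2343 CPM with vehicle, with 8 of 14 tested markers above zero. The part of these cells in the level of Adcy7 was not tested.

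Adcy4 (ENSMUSG00000022220, chromosome 14, 55769057 to 55784095, minus strand), a beta-gamma stimulated isoform known from endothelium, had 16.8 and 20.5 CPM in BML-260 A and B, against 19.8 and 26.1 CPM in vehicle A and B. The groups overlapped, since BML-260 B lay above vehicle A, and the fold was 0.811 with an interval from 0.575 to 1.14 (edgeR adjusted p = 0.608). Endothelial markers summed to 802 and 1070 CPM in the BML-260 libraries, against 1312 and 1195 CPM in the vehicle libraries, with 0 of 14 tested markers above zero, and their part in the level of Adcy4 was not tested.

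**Figure D3:**
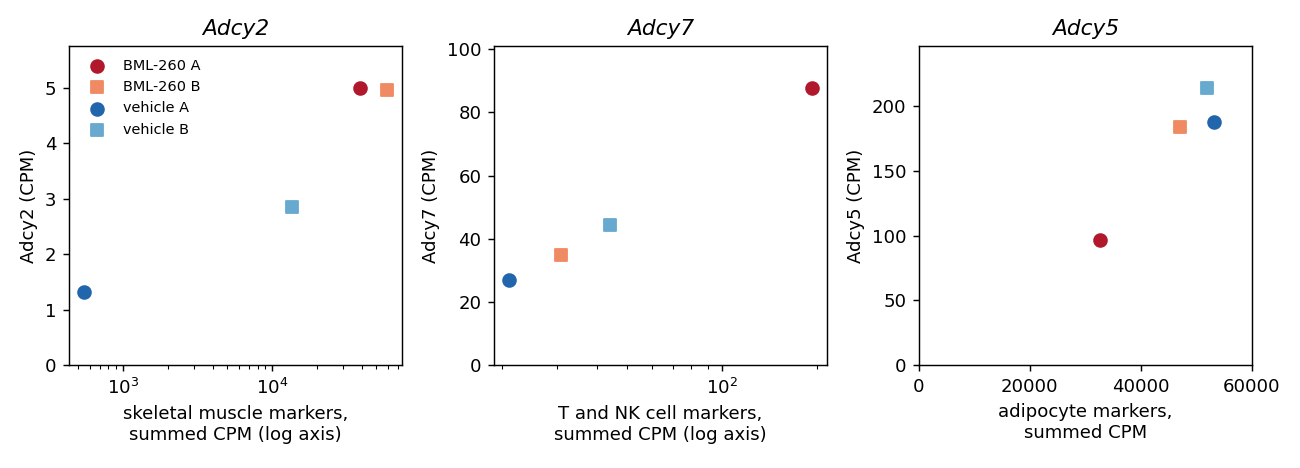
CPM of Adcy2, Adcy7 and Adcy5 in each library against the summed CPM of skeletal muscle, T and NK cell and adipocyte markers (the first 2 on log axes). Adcy2 has its lowest value, 1.33 CPM, where muscle markers are lowest, Adcy7 its highest, 87.9 CPM, where T and NK cell markers are highest, and Adcy5 its lowest, 96.4 CPM, where adipocyte markers are lowest, each with 4 points.

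The cyclases inhibited by Gi and calcium made up most of the cyclase transcripts, and neither passed the test. Adcy5 (ENSMUSG00000022840, chromosome 16, 35154877 to 35305738, plus strand), a main isoform of heart, striatum and adipocytes, had 96.4 and 184 CPM in BML-260 A and B, against 188 and 214 CPM in vehicle A and B. Both BML-260 values were the lower ones, but BML-260 B lay just under vehicle A and BML-260 A far below the rest. The fold was 0.698 with an interval of 0.400 to 1.22 (log2 fold change -0.52, SE 0.32, edgeR adjusted p = 0.588), and leaving out BML-260 A gave a log2 fold change of -0.14, and leaving out BML-260 B one of -1.06. Adipocyte markers summed to 32655 and 47059 CPM with BML-260, against 53232 and 52019 CPM with vehicle, with 0 of 14 tested markers above zero, and their part in the level of Adcy5 was not tested.

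Adcy6 (ENSMUSG00000022994, chromosome 15, 98589973 to 98610076, minus strand), the close relative of Adcy5, had 174 and 226 CPM in the BML-260 libraries, against 183 and 195 CPM in the vehicle libraries. The vehicle values lay between the BML-260 values, and the fold was 1.06 with an interval of 0.777 to 1.43 (edgeR adjusted p = 0.892). Its log2 fold change changed sign without BML-260 B, to -0.13. The ratio of Adcy5 to Adcy6, taken within each library in FPKM and so free of the scaling between libraries, was 0.470 and 0.683 in BML-260 A and B, against 0.857 and 0.926 in vehicle A and B. Both BML-260 ratios were below both vehicle ratios, a description of 4 values with no test.

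Adcy9 (ENSMUSG00000005580, chromosome 16, 4287529 to 4420498, minus strand), a widely expressed cyclase with little response to forskolin, had the smallest edgeR p of the members, while in DESeq2 and in the authors' deposited table Adcy2 had the smallest. It had 37.3 and 45.8 CPM in BML-260 A and B, against 28.9 and 31.1 CPM in vehicle A and B. Both BML-260 libraries lay above both vehicle libraries, which were close to each other. The fold was 1.39 with an interval of 1.07 to 1.80 (log2 fold change 0.47, SE 0.15, edgeR adjusted p = 0.39), and the authors' deposited table has a log2 fold change of 0.416 with an adjusted p of 0.399. The 4 libraries had the same order in Adcy9, in the skeletal muscle markers and in thermogenic adipocyte markers such as Ucp1. Those thermogenic markers summed to 831 and 927 CPM in BML-260 A and B, against 268 and 287 CPM in vehicle A and B. All 13 tested ones lay above zero. Once the muscle score entered the edgeR model, the log2 fold change of Adcy9 was 0.34 (adjusted p = 0.99997, as for every tested member). Muscle markers, thermogenic markers and treatment cannot be told apart in these libraries.

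The promoter window of Adcy9 is printed because it alone of the members' windows outside Gnas and Adcy7 holds TGACG, the core of the cyclic AMP response element, which 20.8% of all windows hold on either strand. It lies on the minus strand of GRCm38.p6 and is 78.3% G and C; capitals mark that 1 match and the 5 GC boxes.
Adcy9, chr16:4420449-4420748: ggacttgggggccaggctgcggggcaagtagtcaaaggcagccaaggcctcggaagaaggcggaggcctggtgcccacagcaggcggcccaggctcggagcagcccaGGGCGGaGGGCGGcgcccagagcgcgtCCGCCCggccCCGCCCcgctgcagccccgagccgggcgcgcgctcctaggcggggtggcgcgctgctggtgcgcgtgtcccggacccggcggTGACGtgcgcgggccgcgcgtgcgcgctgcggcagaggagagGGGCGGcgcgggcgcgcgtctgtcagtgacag
These matches describe the letters of the window and are not evidence of binding.

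**Figure D4:**
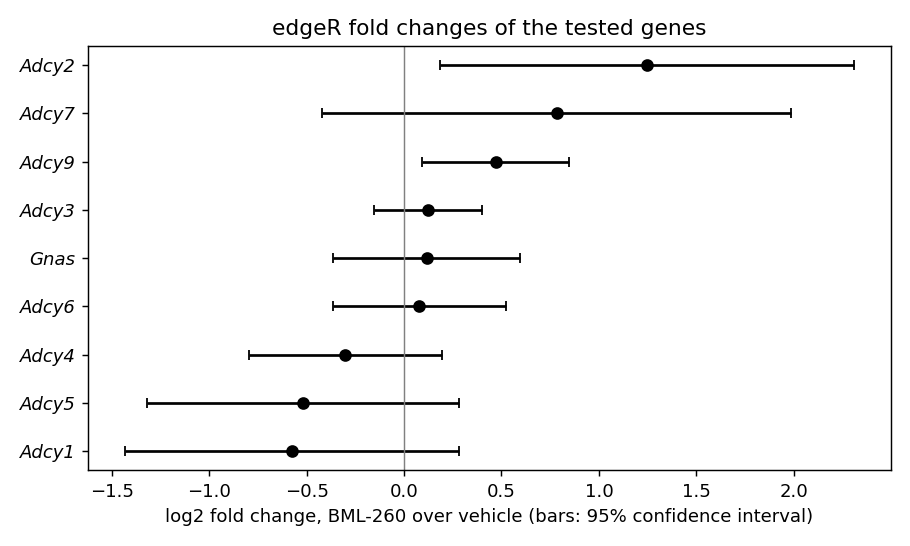
Log2 fold change, BML-260 over vehicle, with its 95% confidence interval from edgeR for the 9 tested genes. The intervals of Adcy2 and Adcy9 lie above 0, and those of the other 7 genes include 0; none of the 9 passed adjustment over all genes.

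Shares of the summed cyclase FPKM showed the isoform make-up of each library. Adcy6 held 36.0% and 39.6% in BML-260 A and B, against 37.4% and 35.1% in vehicle A and B. Adcy5 held 16.9% and 27.0% with BML-260, against 32.0% and 32.5% with vehicle, and Adcy3 13.5% and 12.3%, against 11.2% and 9.80%. In shares of summed CPM, which are not per length, Adcy3 held 9.42% and 7.80% with BML-260, against 8.09% and 7.26% with vehicle, and the groups overlapped. By FPKM, Adcy7 took 18.9% and 6.17% in the BML-260 libraries, against 6.10% and 8.10% in the vehicle libraries. In BML-260 A it so ranked second, ahead of Adcy5. This order was reversed in CPM shares of BML-260 A, with Adcy5 at 20.8% and Adcy7 at 19.0%. Adcy9 held 6.77% and 6.98% of summed FPKM with BML-260 and 5.16% and 4.80% with vehicle. By regulation, the isoforms inhibited by Gi and calcium held 52.9% and 66.6% in the BML-260 libraries, against 69.4% and 67.6% in the vehicle libraries, and those stimulated by beta-gamma dimers 26.6% and 13.8%, against 13.7% and 17.2%. The calcium and calmodulin stimulated ones held 13.7% and 12.6% with BML-260, against 11.7% and 10.3% with vehicle. The make-up of BML-260 B was nearer to the vehicle libraries than that of BML-260 A in both Adcy5 and Adcy7.

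**Figure D5:**
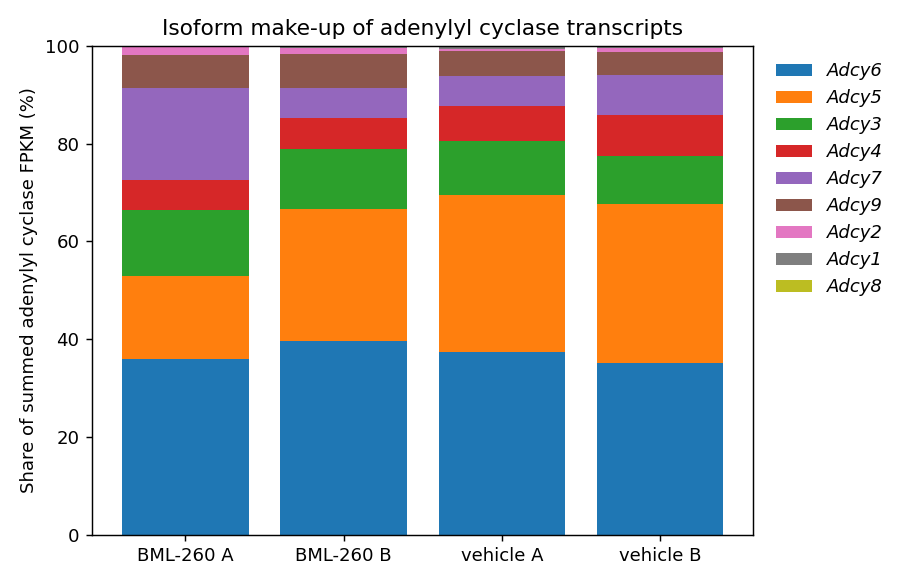
Share of each cyclase gene in the summed FPKM of Adcy1 to Adcy9 (%), by library. The purple segment, Adcy7, is 18.9% in BML-260 A and between 6.10% and 8.10% in the other 3 libraries, and the orange segment, Adcy5, is smallest in BML-260 A at 16.9%.

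Genes around the cyclases were followed in 5 lists of receptors, G protein subunits and regulators, 92 genes of which 71 were tested. edgeR called 0 of the 71 after adjustment; 6 were higher and 11 lower by an unadjusted p under 0.05, where 7.45% of all tested genes were higher and 3.61% lower. The DESeq2 calls were 1 higher gene and 4 lower genes, where DESeq2 called 2.60% of all genes. Their median log2 fold change was -0.08, against 0.02 over all tested genes. Of 21 tested Gs-coupled receptors, the unadjusted p was under 0.05 for 3 higher and 7 lower ones, with a median of -0.13. Those that DESeq2 called lower were the thyrotropin receptor Tshr, the corticotropin receptor Mc2r, the parathyroid hormone receptor Pth1r and the beta-3 adrenergic receptor Adrb3. The summed adipocyte markers given above were lower in both BML-260 libraries as well, Adrb3 is itself 1 of those 14 markers, and their part in the receptor values was not tested. Tshr had 48.4 and 47.8 CPM with BML-260, against 106 and 87.8 CPM with vehicle (log2 fold change -1.01, SE 0.14, edgeR adjusted p = 0.249, DESeq2 adjusted p = 6.69e-06). Adrb3 had 372 and 504 CPM with BML-260, against 683 and 666 CPM with vehicle (edgeR adjusted p = 0.419, DESeq2 adjusted p = 0.0482). The beta-1 adrenergic receptor Adrb1, which also signals through Gs, lay the other way, with 7.51 and 8.02 CPM in the BML-260 libraries, against 3.70 and 3.54 CPM in the vehicle libraries (a fold of 2.14, edgeR adjusted p = 0.301).

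Of 10 tested Gi-coupled receptors 9 had a log2 fold change below 0, with a median of -0.24. Over all 15643 tested genes 7429 lay below 0 and 8214 above. The prostaglandin receptor Ptger3 had 77.0 and 94.8 CPM with BML-260, against 115 and 140 CPM with vehicle (edgeR adjusted p = 0.377). The part of the lower adipocyte markers in these receptor values was not tested either. Among 12 other alpha subunits the median was 0.06. Gnao1, the alpha subunit of Go, had 17.0 and 19.7 CPM in the BML-260 libraries, against 9.73 and 7.65 CPM in the vehicle libraries (log2 fold change 1.08, edgeR adjusted p = 0.285, DESeq2 adjusted p = 0.00792). The inhibitory subunit Gnai1 had 104 and 126 CPM with BML-260, against 160 and 142 CPM with vehicle (edgeR adjusted p = 0.45). Of 13 tested beta and gamma subunits, 9 lay below 0 with a median of -0.15, and 0 were called by either test; Gnb5 had the smallest p (log2 fold change -0.48, edgeR adjusted p = 0.444). Of 15 tested regulators, 11 lay above 0 with a median of 0.11. Cap2, a cyclase-associated protein of striated muscle, had 40.9 and 48.7 CPM with BML-260, against 2.37 and 12.5 CPM with vehicle (edgeR adjusted p = 0.359). Its libraries stood in the order of the muscle markers, which is also that of the thermogenic adipocyte markers. The calmodulin gene Calm3 had 224 and 223 CPM with BML-260, against 152 and 176 CPM with vehicle (edgeR adjusted p = 0.39).

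The genes most like Gnas and Adcy3 over the 4 libraries were sought by the root mean square difference of centred log2 CPM. For Gnas they were Skiv2l, Parp3 and Txnl1, at 0.00426, 0.00493 and 0.00579, and for Adcy3 they were Rdx, Anapc4 and Rprd1a, at 0.00727, 0.00811 and 0.00903. Such likeness was common: of 13131 genes, 1874 lay within 0.1 of Gnas and 2309 within 0.1 of Adcy3.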

How the data were processed

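Total RNA came from TRIzol extraction and went into standard Illumina libraries, per the labels' protocols. One deposited table holds, for each library, the authors' expected counts, which need not be whole and are not normalized, and their FPKM values. It also holds the authors' log2 fold changes, and the authors' p-value and adjusted p-value for each gene. As tools and build the submitters' notes list RSEM 1.2.31, HISAT2 2.1.0, DESeq2 1.10.1 and GRCm38.p5, with no role. No source here states the annotation or strand setting, so overlapping antisense genes and near-identical sequences have uncertain counts.

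Expected counts were rounded and genes with low counts removed (filterByExpr), which left 15643. Treatment was the single model term in the two-sided quasi-likelihood test of edgeR 4.0.16 under R 4.3.3 (TMM scaling, Benjamini-Hochberg over all genes at 0.05), with 2 residual and 3.28 prior degrees of freedom. The SE is the log2 fold change over the square root of F, and intervals are 95%. Implied transcript length is count over FPKM, scaled per library on 739 genes with 1 transcript. Coordinates and transcript numbers come from GENCODE vM21 (GRCm38), start windows from RefSeq. The authors' transcript models may differ: the implied length of Adcy9, up to 7333 bases, exceeds its longest GENCODE transcript, 4974 bases. In some or all libraries the same holds, by less, for Adcy1, Adcy2, Adcy5, Adcy6 and Adcy7. Members, lists and tests were chosen with earlier results of these data known. All 10 members are named; of the 5 lists, genes that DESeq2 called or among the 4 with the smallest edgeR p, except that a gene of these lists is not reported here. Scripts were tested on simulated data. Alternatives were DESeq2 1.42.0, limma 3.58.1 on voom and on FPKM values, other scalings, filters and terms, and leaving out each library. Libraries of 1 treatment differed beyond counting noise (chi-square per gene 45.1 with BML-260 and 39.8 with vehicle).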

Additional observations from a re-analysis of the deposited data

How the results depend on the processing

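edgeR called 0 members, and so did each of 16 alternatives. With all 4 libraries kept, the smallest adjusted p among members lay between 0.133 (edgeR without the low-count filter) and 0.99997 (edgeR with the muscle score). Several of these settings called hardly any gene. Over all tested genes, limma on voom, upper-quartile factors and library totals each called 1 higher and 0 lower, and the muscle score fit called 0. In such settings 0 called members says little about the members. Over the 9 tested members 141 of 144 alternative values kept their direction. The exceptions were Adcy7 when BML-260 A was left out (-0.0467), and Adcy6 when BML-260 B was left out (-0.129) or the muscle score entered (-0.0460). Leaving out 1 library at a time gave log2 fold changes of -0.0467 to 1.30 for Adcy7 and -0.129 to 0.243 for Adcy6, and in such a fit the lone library is assumed to vary like the others. Among the 71 tested genes of the 5 lists edgeR called 0 and DESeq2 5; the cause was not tested. Libraries share the letters A and B across treatments, but nothing says that a letter marks a shared animal or day. The correlation of same-letter deviations was -0.04 over 13132 genes. With the letter as a replicate block edgeR called 0 members, and 0 genes in all, against 1 gene without it. Without a filter on low counts edgeR called 565 genes higher and 86 lower, robust prior estimation 2 higher, leaving out vehicle B 300 higher and 9 lower, and leaving out BML-260 B 5 higher. Taking isoform shares from CPM in place of FPKM moved 10 of 18 group means by more than the spread between libraries. Adcy8, with 2 to 7 reads per library, is limited by depth.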

Other observations

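The gene of the coactivator PGC-1 alpha, Ppargc1a, which drives mitochondrial and thermogenic genes and has alternative starts, showed an implied transcript length of 5680 and 5774 bases in BML-260 A and B, against 6559 and 6712 bases in vehicle A and B. That is 13.7% shorter on average with no overlap between treatments, and the gene was chosen after its values were seen. It is 1 of the 504 genes, 5.12% of 9844, that were at least 10% shorter without overlap, as Adcy3 was. The mirror image of longer transcripts held for 438 genes. Both vehicle lengths exceed the longest GENCODE transcript of Ppargc1a, 6464 bases, so its lengths rest on uncertain transcript models. Neither the shorter length nor the part of alternative starts in it was tested.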
